A study of Mus musculus with 12 samples.

Results

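Cells of the embryonic mouse brain given a knockdown of Zfp335 were compared 5 days and 1 day after the knockdown, and the change over time is described across all genes. The members are 6 of the 12 arrays of the series, 3 for each time point, chosen by sample title, source name and time label. Zfp335 (ZNF335 in human) is a zinc finger protein that binds the trithorax histone H3 lysine 4 methyltransferase complex, and its loss in humans and mice gives a small cortex. The series also holds 3 control arrays for each time point. They share the normalization, the filter and the fit, and otherwise enter here only as a reference. All cells came from C57BL/6 mice and received either the Zfp335 knockdown or a control knockdown at E14.5, in mid-neurogenesis. The source names call the control cells neurons and give no cell type for the knockdown cells. The design text names short hairpin RNA and sorting by flow cytometry, whereas the titles name small interfering RNA, and no source used here gives the hairpin, the sorting marker or how many animals went into an array. The labels conflict in places. For the 5 day arrays the description field names the opposite group to the title and source name, and the codes in the instrument files go with the titles, which were followed. The stage label (E15.5) and the harvest label (P0) are the same for all samples, so only the time label separates the time points. RNA was measured on Affymetrix Mouse Genome 430 2.0 arrays, which read the 3 prime end of transcripts with sets of short probes, and 1 intensity is given for each probe set. Since no label ties the arrays of a group to different animals, the spread that the p-values rest on may be technical only.

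In the developing cortex, radial glia divide at the ventricle and give intermediate progenitors, which express Eomes and divide into neurons. Neurons of the deep layers are made first and those of the upper layers later, and near birth the remaining radial glia turn to making astrocytes and oligodendrocyte precursors, while interneurons migrate in from the ventral forebrain. REST, a repressor of neuronal genes, is present in progenitors and gives way as neurons mature, and the trithorax complex places a histone mark found at active promoters.

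The arrays are called by time and label number below. The 1 day array 1 stood apart: over all probe sets kept, its normalized values correlated at 0.611 and 0.618 with 1 day arrays 2 and 3, which correlated at 0.978 with each other, but at 0.870, 0.732 and 0.874 with the 5 day arrays. It correlated at 0.989 and 0.929 with control arrays 1 and 3 of the same time point, but at 0.682 with control array 2. That control array 2 correlated at 0.975 and 0.978 with 1 day arrays 2 and 3. The 1 day arrays thus split across the knockdown and control labels, and the cause was not tested. Its hybridization control spots were the dimmest of the 6 (11.2 against 12.3 to 12.8 on the log2 scale). The 5 day array 2 had the highest ratio of 3 prime to 5 prime signal for Actb (8.76 against 1.51 to 2.84), a sign of RNA quality. The 1 day knockdown arrays shared a chip lot, a scanner and a fluidics station, and the 5 day knockdown arrays shared others, so time and these factors cannot be told apart among the knockdown arrays. The number of arrays limits the precision. Between 3 and 3 arrays an exact permutation test cannot go below 0.1, so p-values come from limma, fitted to all 12 arrays.

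Zfp335 itself, the knockdown target, had normalized intensities of 204, 37 and 27.6 in 1 day arrays 1 to 3 and 112, 32.3 and 136 in the 5 day arrays. Control arrays 1 to 3 had 205, 32.1 and 166 at 1 day and 88.5, 154 and 183 at 5 days. The ranges of the knockdown and control arrays overlapped at both time points. At 1 day, array 1, labelled knockdown, stood level with control array 1, and control array 2 lay between knockdown arrays 2 and 3. The level of the target therefore does not bear out the knockdown and control labels of the 1 day arrays. The change over time in the knockdown cells was 0.30 ± 0.74 (SE) on the log2 scale (limma, adjusted p = 0.806), and the exact two-sided permutation test gave p = 0.9. Without 1 day array 1 the value was 1.03 (adjusted p = 0.247), and after scaling to the 75th percentile it was -0.65. The directions below are between time points and do not rest on the knockdown label, except where the knockdown is set against the control.

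Of 27022 probe sets tested, 1616 (5.98%) passed an adjusted p of 0.05, of which 1093 (4.04%) were higher and 523 (1.94%) lower at 5 days, and 6793 had an unadjusted p under 0.05. Taking the brightest probe set of each of 12263 genes, 876 (7.14%) passed, of which 634 (5.17%) rose and 242 (1.97%) fell. Rose and fell are used only for genes past this threshold. Counts of list members that rose or fell are read beside the 5.17% and 1.97% of all genes. Values are quantile normalized linear intensities, and changes are differences of log2(intensity + 16), which understate the change of dim probe sets. The median size of the change among the 1616 was 1.64, and 1433 changed at least 2-fold. For 6259 probe sets (23.2%) the 3 arrays of one time point all lay above the 3 of the other, 3706 (13.7%) with the 5 day arrays higher and 2553 (9.45%) with them lower. Counts of list members without overlap are set beside these shares, which are over all probe sets and not over 1 probe set per gene. The median change of all genes was 0.21, and 1.18 without normalization between arrays, so lists are read beside that median. Under 4 scalings, 31 of 37 lists kept their side of the all-gene median, the exceptions being G1 cyclins, BAF subunits, trithorax, REST corepressors, p53 targets and meninges.

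The calls depended on single arrays. Without 1 day array 1, all 1616 were called among 7729, without 1 day arrays 2 or 3 the counts were 349 and 341, and without 5 day arrays 1, 2 or 3 they were 710, 796 and 521. In all 6 of these fits 306 probe sets (18.9% of the calls) passed, 188 higher and 118 lower. With 1 day array 1 as the sole 1 day array, 132 probe sets were called. Taking the brightest probe set of each gene, 23.0% of all genes rose and 6.69% fell without 1 day array 1, and counts of list members in that fit are read beside these shares. Calls said below to hold whichever array was left out are from fits that keep the control arrays. With the 6 knockdown arrays fitted alone 146 probe sets were called, among them 3 genes of intermediate progenitors and newborn neurons, 2 of the oligodendrocyte lineage and 1 each of the immediate-early, interneuron, meningeal and erythroid lists, and none of the other lists, those of mitosis, DNA replication, radial glia, upper-layer neurons and astrocytes included.

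Genes of intermediate progenitors and newborn neurons were lower at 5 days. Of 17 members tested, 7 fell and none rose, where 1.97% of all genes fell. The list median was -0.76 against 0.21 for all genes. All 5 day arrays lay below all 1 day arrays for 9 of the 17, against 9.45% of all probe sets. In such bulk samples, fewer cells of a type and less RNA per cell cannot be told apart. Without normalization the median was 0.37, still below the 1.18 of all genes. Nhlh1, a helix-loop-helix factor of newborn neurons, had intensities of 2078, 1047 and 1101 in 1 day arrays 1 to 3 and 58.2, 73 and 54.4 in 5 day arrays 1 to 3. The 5 day arrays lay far below every 1 day array (-4.13 ± 0.40 (SE), adjusted p = 0.000326). Neurog2, the proneural factor that starts excitatory neurogenesis, fell from 2980.3, 3362 and 3509 to 457, 511 and 732 (-2.53 ± 0.23 (SE), adjusted p = 0.000232). Eomes, the T-box factor that defines intermediate progenitors, fell from 4069, 2804 and 3209 to 476, 628 and 830.1 (-2.37 ± 0.26 (SE), adjusted p = 0.000767). No 5 day array came within 3-fold of any 1 day array for either gene. Mfap4, a microfibril protein listed with newborn neurons, fell from 1935, 1213 and 1159 to 225, 307 and 304 (-2.28 ± 0.31 (SE), adjusted p = 0.00297). The calls of Nhlh1, Neurog2, Eomes, Mfap4 and Neurod4 held whichever of the 6 arrays was left out. The other calls, of Rnd2 and Mfng, were lost in some of these fits, 2 without 1 day array 2, 2 without 1 day array 3, 1 without 5 day array 1, 2 without 5 day array 2 and 1 without 5 day array 3 (adjusted p 0.0515 to 0.0864). Without 1 day array 1 the list median was -0.61, and with it as the sole 1 day array -1.19.

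**Figure D1:**
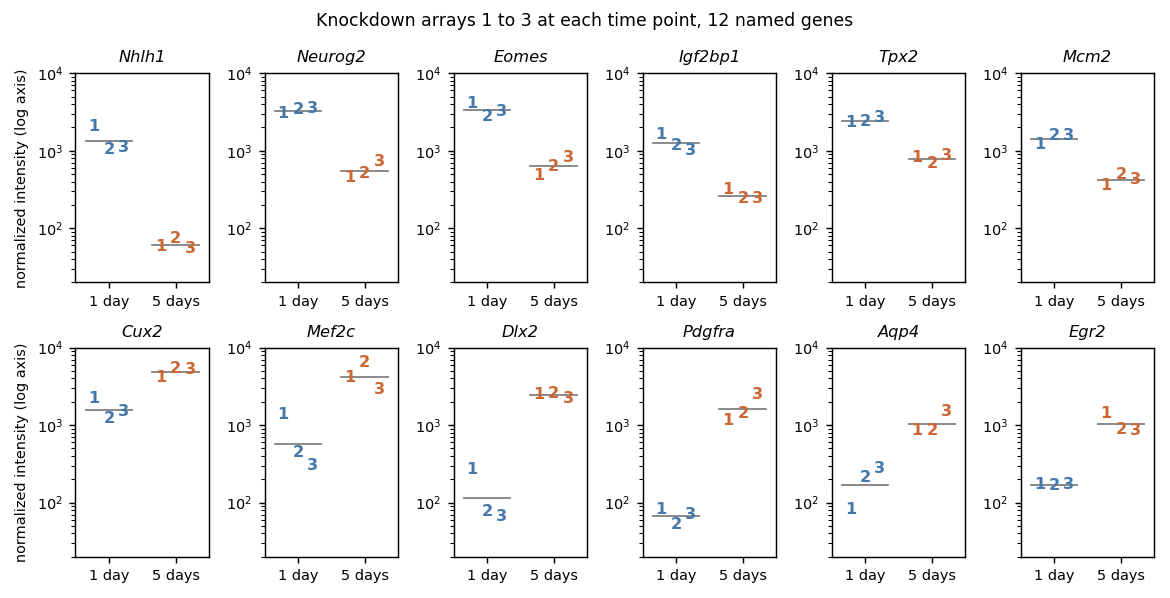
Normalized intensity on a log axis of 12 named genes at 1 day (blue) and 5 days (orange) in the knockdown cells; each digit is 1 array by its label number and the grey line is the mean of the 3 arrays on the log2 scale. Nhlh1, Neurog2, Eomes, Igf2bp1, Tpx2 and Mcm2 are lower in all 5 day arrays, and Cux2, Mef2c, Dlx2, Pdgfra, Aqp4 and Egr2 higher. Among 1 day arrays, array 1 is nearest the 5 day arrays for Neurog2, Tpx2, Mcm2, Cux2, Mef2c, Dlx2, Pdgfra and, by little, Egr2. It is farthest from them for Nhlh1, Eomes, Igf2bp1 and Aqp4.

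Cell division genes moved the same way. Of 29 genes of G2 phase and mitosis, 11 fell and none rose, where 1.97% of all genes fell. All 29 had a negative change, where 60.5% of all genes had a positive one. Every 5 day array lay below every 1 day array for 24 of the 29, against 9.45% of all probe sets. The list median was -1.09, and 0.14 without normalization, where all genes stood at 1.18. Tpx2, a spindle assembly factor, fell from 2285, 2410.0 and 2678 to 812, 691 and 859 (-1.63 ± 0.21 (SE), adjusted p = 0.00235), and it was called whichever array was left out, but not with the knockdown arrays fitted alone (adjusted p = 0.0796). Cenpa, the histone variant of centromeres, fell from 1535, 1162 and 1211 to 516, 259 and 555 (-1.58 ± 0.30 (SE), adjusted p = 0.0184). Spc25, a kinetochore subunit, fell from 1658, 1611 and 1738 to 500.5, 644 and 577 (-1.52 ± 0.25 (SE), adjusted p = 0.00974). In each of these genes the groups did not overlap, and the 5 day arrays of Cenpa were the most spread. Birc5, which encodes survivin of the chromosomal passenger complex, fell from 2649, 3045 and 3487 to 1443, 783 and 1189 (-1.45 ± 0.26 (SE), adjusted p = 0.0134). Mki67, the proliferation antigen, fell from 1708, 2145 and 2026 to 883, 963 and 882 (-1.09 ± 0.22 (SE), adjusted p = 0.0216), but was 0.33 without normalization and 0.22 with normalization within each time point. Of the 11 calls, those lost on leaving out an array were 8 without 1 day array 2, 10 without 1 day array 3, 4 without 5 day array 1, 4 without 5 day array 2 and 5 without 5 day array 3 (adjusted p 0.0513 to 0.139).

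Genes of DNA replication and the G1 to S transition were lower in most cases without passing the test. Of 29 tested, 4 fell and none rose, where 1.97% of all genes fell. In 27 the change was negative, where 60.5% of all genes had a positive one. The list median was -0.83 (0.32 without normalization). All 5 day arrays lay below all 1 day arrays for 20 of the 29, against 9.45% of all probe sets. Mcm2, a subunit of the replicative helicase, fell from 1194, 1553 and 1563 to 361, 494 and 429.6 (-1.71 ± 0.30 (SE), adjusted p = 0.0119). Mcm5, its partner in the same ring, fell from 1016, 866 and 1129.7 to 418, 496 and 426 (-1.14 ± 0.24 (SE), adjusted p = 0.0245), with 0.20 without normalization and 0.078 with normalization within time points. Cdt1, which loads the helicase, fell by 1.33 (adjusted p = 0.0225, 0.046 without normalization). Rrm1, a ribonucleotide reductase subunit, changed by -1.07 (adjusted p = 0.036; 0.37 without normalization and 0.24 within time points). The 4 calls were lost as follows, 4 without 1 day array 2, 4 without 1 day array 3, 3 without 5 day array 1, 2 without 5 day array 2 and 3 without 5 day array 3 (adjusted p 0.0589 to 0.127). Without 1 day array 1, 13 of the 29 fell and none rose. Among 18 G1 cyclins, kinases and inhibitors, E2f3, an activator of S phase genes, fell from 2091, 2139.8 and 2207 to 1130.4, 907 and 946 (-1.10 ± 0.20 (SE), adjusted p = 0.0137), and was 0.30 and 0.19 under those scalings. Its call was lost without 1 day array 2 or 3 or 5 day array 3 (adjusted p 0.0555 to 0.0678). The other 17 did not pass, with a list median of 0.13, and 4 of the 18 rose and 3 fell without 1 day array 1.

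Promoters of 3 fallen genes from these lists are shown because cell cycle genes are commonly read through short promoter motifs, the E2F site in S phase genes and the CHR and CCAAT boxes in mitotic genes. Sequences are from RefSeq on GRCm38.p6, 250 bases before to 50 after the annotated start, written 5′ to 3′ on the strand of the gene, and both strands were searched. Replication genes were searched for TTTCCCGC or TTTGGCGC (E2F), and mitotic genes for TTTGAA (CHR) and CCAAT. The capitals mark E2F matches in Mcm5, and CHR and CCAAT matches in Spc25 and Mki67, so the CCAAT letters in Mcm5 are in lower case. The genes shown were picked after their matches were seen, and of the other fallen genes named, Mcm2 and Rrm1 held no E2F match and Birc5 no CHR or CCAAT match. Mcm5 (chr8:75109259-75109558, plus strand) holds 1 E2F match, Spc25 (chr2:69206164-69206463, minus strand) holds 2 CCAAT matches and 1 CHR match, and Mki67 (chr7:135716330-135716629, minus strand) holds 3 CCAAT matches and 2 CHR matches, none overlapping.
Mcm5: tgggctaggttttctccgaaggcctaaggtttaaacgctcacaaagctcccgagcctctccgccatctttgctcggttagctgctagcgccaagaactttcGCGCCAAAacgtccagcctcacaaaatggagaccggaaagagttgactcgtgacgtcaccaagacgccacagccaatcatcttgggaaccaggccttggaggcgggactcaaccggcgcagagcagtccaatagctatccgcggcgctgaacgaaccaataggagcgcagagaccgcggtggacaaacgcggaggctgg
Spc25: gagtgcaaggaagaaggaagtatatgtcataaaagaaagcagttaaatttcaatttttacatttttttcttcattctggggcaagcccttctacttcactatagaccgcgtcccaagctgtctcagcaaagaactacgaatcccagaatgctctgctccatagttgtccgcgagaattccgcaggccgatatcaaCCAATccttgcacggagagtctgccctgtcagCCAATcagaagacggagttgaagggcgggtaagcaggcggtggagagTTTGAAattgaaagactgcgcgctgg
Mki67: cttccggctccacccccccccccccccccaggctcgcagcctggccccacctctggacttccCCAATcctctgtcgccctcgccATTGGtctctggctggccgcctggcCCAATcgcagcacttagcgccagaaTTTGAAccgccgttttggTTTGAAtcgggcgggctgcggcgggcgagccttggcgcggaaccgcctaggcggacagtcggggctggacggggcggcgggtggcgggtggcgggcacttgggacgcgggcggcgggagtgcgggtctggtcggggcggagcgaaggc
Of 24 replication genes with an entry (26 promoters), 9 promoters (34.6%) held the E2F letters, against 1.56% of all 32851 promoters in the table. Of 24 mitotic promoters, 18 (75%) held the CHR letters and 18 (75%) CCAAT, against 17.9% and 37.4% of all promoters, and none held the E2F letters. These matches describe the letters in the window.

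Radial glia genes split. Of 20 tested, 3 rose and 1 fell, where 5.17% of all genes rose and 1.97% fell, and the list median was 0.011. Tnc, an extracellular matrix protein of radial glia and astrocytes, rose from 446, 523 and 801 to 2553, 1582 and 4292 (2.15 ± 0.44 (SE), adjusted p = 0.0223). Ptprz1, a receptor phosphatase, rose from 1398, 1603 and 1733 to 3993, 5869 and 6501 (1.75 ± 0.25 (SE), adjusted p = 0.00418), in all 6 fits that left out an array. Slc1a3, the glial glutamate transporter, rose from 1671, 2210.5 and 2589 to 4434, 3906 and 6686 (1.19 ± 0.29 (SE), adjusted p = 0.0406), while dimmer probe sets of the gene gave -0.52 and -0.28 without passing. Sox3, a factor of neural progenitors, fell from 463, 376 and 299.6 to 142, 88.7 and 178 (-1.40 ± 0.31 (SE), adjusted p = 0.0308). For all 4 genes the 5 day range lay outside the 1 day range. Pax6, which sets radial glial identity, had 1023, 1619 and 1274 and 611, 785 and 897, lower in every 5 day array but not past the test (-0.75, adjusted p = 0.112; 0.70 without normalization, 0.57 within time points). Sox2, shared by all neural progenitors, had 1467, 2497 and 1901 and 1810.0, 3272 and 2941 (0.44, adjusted p = 0.353), with overlapping ranges. Of the 4 calls, those lost were 3 without 1 day array 2, 3 without 1 day array 3, 3 without 5 day array 1, 2 without 5 day array 2 and 3 without 5 day array 3 (adjusted p 0.052 to 0.128), and 4 genes rose and 5 fell without 1 day array 1.

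Among 17 regulators that time progenitors and start gliogenesis, Igf2bp1 fell and Sox8 rose, with a list median of -0.21. Igf2bp1, an RNA-binding protein of early progenitors, fell from 1623, 1185 and 1001 to 312, 239.6 and 245 (-2.17 ± 0.24 (SE), adjusted p = 0.000823), whichever array was left out. Sox8, a factor of the glial lineage, rose from 105, 178 and 189 to 447, 283 and 532 (1.32 ± 0.29 (SE), adjusted p = 0.0299), and was not called without 1 day array 2 or 3 or 5 day array 1 or 3 (adjusted p 0.0751 to 0.0957). Hmga2, a chromatin protein of young neural stem cells, had 444, 903 and 1167 and 155, 673 and 283, with overlapping ranges (-1.28, adjusted p = 0.209).

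Some genes of upper-layer neurons rose and the deep-layer factor Fezf2 fell. Of 14 upper-layer genes tested, 4 rose and none fell, where 5.17% of all genes rose, with a list median of 0.56. Every 5 day array lay above every 1 day array for 8 of the 14, against 13.7% of all probe sets. Cux2, a homeobox factor of the upper layers, rose from 2192, 1203 and 1474 to 4129, 5382 and 5132 (1.61 ± 0.24 (SE), adjusted p = 0.00551), although a dimmer probe set gave -0.29 without passing. Mef2c, a factor of maturing cortical neurons, rose from 1371, 446 and 303 to 4079.8, 6390.2 and 2858 (2.84 ± 0.55 (SE), adjusted p = 0.0186). Ptprk, a receptor phosphatase, rose from 863, 477 and 667 to 2011, 4019 and 2377 (2.02 ± 0.32 (SE), adjusted p = 0.0075), and Lmo4, a LIM-only transcription cofactor, rose by 1.32 (adjusted p = 0.0493). In Cux2, Mef2c, Ptprk and Lmo4 1 day array 1 was the highest of its group, yet below the 5 day arrays. Cux2 and Ptprk were called in every fit that left out an array, and the calls of Mef2c and Lmo4 were lost in some, 2 without 1 day array 2, 2 without 1 day array 3, 2 without 5 day array 1, 2 without 5 day array 2 and 1 without 5 day array 3 (adjusted p 0.0539 to 0.198). Of 14 deep-layer genes, 1 fell, none rose, and the median was -0.29 (0.99 without normalization), while 2 rose and 1 fell without 1 day array 1. Fezf2, which specifies subcerebral projection neurons, fell from 1824, 799 and 533 to 239, 98.8 and 303 (-2.15 ± 0.55 (SE), adjusted p = 0.048), a call lost without 1 day array 2 or 3 or 5 day array 1, 2 or 3 (adjusted p 0.0756 to 0.135). Bcl11b, its partner in that fate, had 3556, 2257 and 1952 and 1468, 1738 and 1695, and did not pass (-0.61, adjusted p = 0.208; 0.71 without normalization, 0.62 within time points).

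**Figure D2:**
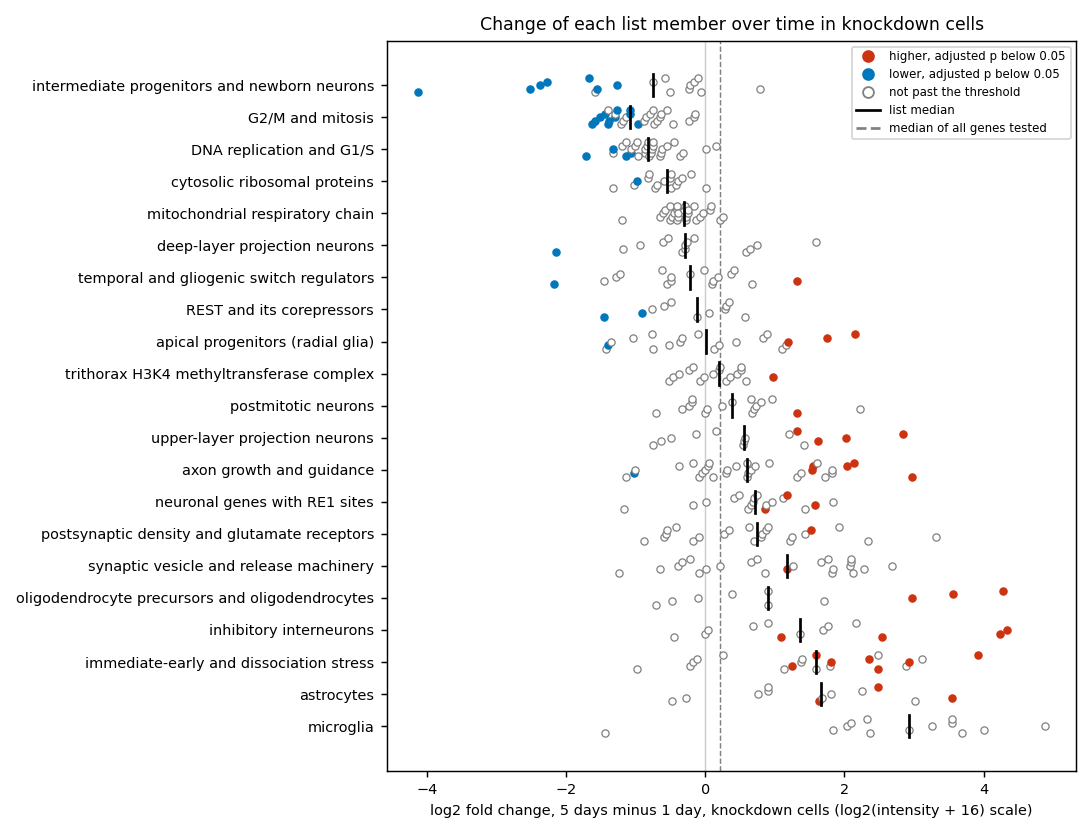
Log2 fold change, 5 days minus 1 day in knockdown cells, of each member of 21 lists (1 point per gene, brightest probe set; red rose, blue fell, open did not pass); the short black line is the list median and the dashed line the median of all genes, 0.21. Intermediate progenitor and cell division lists lie to the left, immediate-early, astrocyte and microglial lists to the right, and no microglial gene passed.

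Of the postmitotic neuron genes 1 rose, near the share of all genes that did (5.17%). Of 17 postmitotic neuron genes, Rbfox1, a neuronal splicing factor, rose from 808, 781 and 604 to 1515, 2340.3 and 1747 (1.32 ± 0.27 (SE), adjusted p = 0.0238; not called without 1 day array 2 or 3 or 5 day array 2 or 3 (adjusted p 0.0642 to 0.112)), and the other 16 did not pass, whereas 5 of the 17 rose without 1 day array 1. Tubb3, the neuronal tubulin, had 4821, 1579 and 1328 at 1 day and 4245, 1111 and 3550.1 at 5 days. In it 1 day array 1 was the highest of the 6 and 5 day array 2 the lowest (0.24, adjusted p = 0.806, and -0.11 and -0.12 without 1 day array 3 or 5 day array 1). Dcx, the microtubule protein of migrating neurons, had 4161, 2962 and 2922 and 3471, 5730.4 and 4012 (0.38, adjusted p = 0.336). Both genes were bright in every array.

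Of 23 genes of synaptic vesicles and transmitter release, 1 rose, none fell, where 5.17% of all genes rose, and the list median was 1.18. Without 1 day array 1, 13 of the 23 rose, where 23.0% of all genes did, and against 1 day array 1 alone the list median was 0.10. Syt4, a synaptotagmin of dense-core vesicles, rose from 1094, 761 and 944 to 1720.3, 2991 and 1829.7 (1.18 ± 0.25 (SE), adjusted p = 0.0281), a call lost without 1 day array 2 or 3 or 5 day array 2 or 3 (adjusted p 0.0569 to 0.123). Syn1, which tethers vesicles and was picked here after its values were seen, had 622, 61.9 and 72.4 and 545, 1184 and 724 (2.28, adjusted p = 0.118; 3.26, adjusted p = 0.00736, without 1 day array 1). For Syn1, 1 day array 1 lay among the 5 day arrays and more than 8-fold above the other 1 day arrays. For 12 of the 23 genes, 1 day array 1 was more than 3-fold above both other 1 day arrays. Slc12a5, the chloride exporter of mature neurons, had 234, 26 and 19 and 204, 337 and 126, with 1 day array 1 again among the 5 day arrays (1.63, adjusted p = 0.233; 2.53, adjusted p = 0.0227, without 1 day array 1, and -0.17 with it as the sole 1 day array). Slc12a2, the chloride importer of young neurons, had 1789.6, 2433 and 2066 and 3032, 2922 and 2578 (0.44, adjusted p = 0.265). None of the 11 GABA-A receptor and chloride transporter genes passed in limma, though 4 rose without 1 day array 1. The receptor subunits of smallest p were Gabrg1 (60, 163 and 187, then 261, 401 and 362; 1.33, adjusted p = 0.0636) and Gabra2 (328, 475 and 474, then 807, 1527 and 728; 1.17, adjusted p = 0.0898).

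Calls among postsynaptic genes, ion channels and guidance genes are given beside the 5.17% of all genes that rose and the 1.97% that fell. Of 22 postsynaptic genes, Dlg2, a scaffold of glutamate receptors, rose from 566, 339 and 454 to 1284, 1539.6 and 1099 (1.51 ± 0.28 (SE), adjusted p = 0.0161; not called without 1 day array 2 or 3 (adjusted p 0.0694 to 0.0754)), and 7 rose and 1 fell without 1 day array 1. Of 24 voltage-gated channel genes, Cacnb4 rose from 238, 190.4 and 241 to 367, 648 and 450.4 (1.05 ± 0.25 (SE), adjusted p = 0.0371) and Scn3a from 779, 1165 and 1140.2 to 1539.6, 3156 and 2262 (1.12 ± 0.29 (SE), adjusted p = 0.0487). Of the 24, 10 rose and 2 fell without 1 day array 1. Both calls were lost without 1 day arrays 2 or 3 or 5 day arrays 2 or 3 (adjusted p 0.0835 to 0.15), and a dimmer Cacnb4 probe set gave -1.02 without passing. Scn3a encodes the embryonic sodium channel and Cacnb4 a calcium channel subunit. Of 31 axon growth and guidance genes, 5 rose and 1 fell, with a median of 0.61. Cntn1, an adhesion protein of axons, rose from 186, 43 and 52.2 to 592, 794 and 779 (2.97 ± 0.55 (SE), adjusted p = 0.0158). Robo1, a Slit receptor, rose from 2176, 1924 and 1949 to 4478, 8016 and 5748 (1.55 ± 0.37 (SE), adjusted p = 0.0402). Chl1 rose by 2.13, the netrin receptor Unc5c by 2.03 and Sema3c by 1.54, with adjusted p of 0.0463, 0.0389 and 0.0306. Dcc, the attractive netrin receptor, fell from 2536, 2014 and 1846 to 830.4, 1199 and 1092 (-1.03 ± 0.24 (SE), adjusted p = 0.0384), but was 0.37 without normalization and 0.27 within time points. Dimmer probe sets of Cntn1, Robo1 and Chl1 gave -0.36, -0.45 and -0.16 without passing. Of the 6 calls, those lost on leaving out an array were 6 without 1 day array 2, 6 without 1 day array 3, 3 without 5 day array 1, 6 without 5 day array 2 and 6 without 5 day array 3 (adjusted p 0.0511 to 0.183), and 11 of the 31 rose and 1 fell without 1 day array 1.

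Genes of oligodendrocyte precursors and astrocytes held some of the largest rises. Of 10 oligodendrocyte lineage genes, 3 rose and none fell, where 5.17% of all genes rose. The summed intensity of the list was 1350.2, 1716 and 1409 at 1 day and 3785, 4282 and 6599 at 5 days. Pdgfra, the growth factor receptor of oligodendrocyte precursors, rose from 82.5, 52.1 and 70.6 to 1161, 1429 and 2453 (4.27 ± 0.33 (SE), adjusted p = 5.48e-05), while a dimmer probe set gave 1.09 without passing. Olig1, a helix-loop-helix factor of the lineage, rose from 63.2, 67.3 and 57.1 to 693, 793 and 1368 (3.56 ± 0.28 (SE), adjusted p = 6.59e-05). In both, all 5 day arrays exceeded all 1 day arrays more than 10-fold, and the calls held whichever array was left out. Bcas1, a gene of oligodendrocytes that begin to myelinate, rose from 92.5, 8.77 and 22 to 268, 405 and 398 (2.97 ± 0.68 (SE), adjusted p = 0.0342), a call lost without 1 day array 2 or 3 or 5 day array 1, 2 or 3 (adjusted p 0.0704 to 0.139). In the fit without 1 day array 1, 5 of the 10 rose.

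Of 12 astrocyte genes, 3 rose and none fell, where 5.17% of all genes rose. The list had a median of 1.66 and a summed intensity of 7574, 10664 and 9834 at 1 day and 22789.6, 12798 and 26510.0 at 5 days. Aqp4, the water channel of astrocyte endfeet, rose from 82.3, 212 and 273 to 858, 841 and 1515 (2.49 ± 0.40 (SE), adjusted p = 0.00868). Sparcl1, a secreted synapse-promoting protein, rose from 755, 212 and 227 to 4366, 3564 and 4369.7 (3.55 ± 0.52 (SE), adjusted p = 0.00474). Both were called in every fit that left out an array. Clu, a secreted chaperone, rose from 505, 806 and 736 to 1911, 1579 and 3150.0 (1.64 ± 0.36 (SE), adjusted p = 0.0299), a call lost without 1 day array 2 or 3 or 5 day array 1 or 3 (adjusted p 0.0668 to 0.101). In the fit without 1 day array 1, 5 of the 12 rose. The probe sets of Aldoc, a glycolytic enzyme of astrocytes, disagreed. The brightest had 2373, 3365 and 3500.5 and 3076, 1201 and 4171 (-0.28, adjusted p = 0.677; 0.93 without normalization, 0.82 within time points), and another gave 2.87 ± 0.45 (SE), adjusted p = 0.00746.

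Among interneuron genes, the Dlx factors rose. Of 13 tested, 4 rose and none fell, where 5.17% of all genes rose. The summed intensities were 2877, 1967 and 1998 at 1 day and 8049, 11341 and 6483 at 5 days. Every 5 day array lay above every 1 day array for 9 of the 13, against 13.7% of all probe sets. Dlx1, a homeobox factor of ventral forebrain interneurons, rose from 185, 14.8 and 10.4 to 810.0, 1467 and 1072 (4.33 ± 0.69 (SE), adjusted p = 0.00812). Dlx2, its neighbour and partner, rose from 269, 76.4 and 65.4 to 2459.6, 2558 and 2220.4 (4.23 ± 0.46 (SE), adjusted p = 0.000767). The 5 day arrays lay together, well above 1 day array 1, which in turn lay above the other 1 day arrays. Dlx5 rose from 149, 50.8 and 28.5 to 329, 660.3 and 391 (2.53 ± 0.45 (SE), adjusted p = 0.014) and Dlx6 from 58.4, 52.7 and 37.4 to 95.3, 183 and 104 (1.09 ± 0.28 (SE), adjusted p = 0.0466). Dlx1 and Dlx2 were called in every fit, and of the others, calls were lost 2 without 1 day array 2, 2 without 1 day array 3, 1 without 5 day array 1, 1 without 5 day array 2 and 1 without 5 day array 3 (adjusted p 0.0603 to 0.187). Of the 13, 9 rose without 1 day array 1. In the control cells Dlx1 and Dlx2 changed by 4.68 and 4.90 (adjusted p = 0.00604 and 0.000244).

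Immediate-early genes, which respond within minutes to activity and also to cell dissociation, were higher at 5 days. Of 20 tested, 7 rose and none fell, where 5.17% of all genes rose, and the list median was 1.59. Egr2, a zinc finger factor, rose from 171, 166 and 170.0 to 1423, 870.4 and 853 (2.49 ± 0.40 (SE), adjusted p = 0.00796), and Klf6 from 1187, 1209.7 and 1539 to 4171, 4257 and 3484 (1.59 ± 0.22 (SE), adjusted p = 0.00329). Both were called in every fit, and their 1 day arrays sat close together. Fos, a subunit of the AP-1 factor, rose from 1436, 534 and 1329 to 5673, 3547 and 7068 (2.35 ± 0.44 (SE), adjusted p = 0.0169). Zfp36, which degrades short-lived messages, rose from 198, 36.7 and 32.4 to 2502, 997 and 720.4 (3.92 ± 0.81 (SE), adjusted p = 0.0245), with 1 day array 1 above the other 1 day arrays. Egr3, Egr1 and Dusp1 rose by 2.93, 1.80 and 1.25 (adjusted p = 0.0294, 0.0357 and 0.0372). Of the 7, calls were lost 5 without 1 day array 2, 4 without 1 day array 3, 5 without 5 day array 1, 4 without 5 day array 2 and 5 without 5 day array 3 (adjusted p 0.0517 to 0.139), and 11 of the 20 rose and 1 fell without 1 day array 1.

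The promoters of Egr2 and Zfp36 are shown because the serum response factor reads immediate-early genes through the CArG box, and these were the genes of the list, picked after their values were seen, that held its letters. Egr2 (chr10:67537619-67537918, plus strand) and Zfp36 (chr7:28379179-28379478, minus strand) each hold 1 CArG box in the window shown, in capitals, from RefSeq on GRCm38.p6.
Egr2: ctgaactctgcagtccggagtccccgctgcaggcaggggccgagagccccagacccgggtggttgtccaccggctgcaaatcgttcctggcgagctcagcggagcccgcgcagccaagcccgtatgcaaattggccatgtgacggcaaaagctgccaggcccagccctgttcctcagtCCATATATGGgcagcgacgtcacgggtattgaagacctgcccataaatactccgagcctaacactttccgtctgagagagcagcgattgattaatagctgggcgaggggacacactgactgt
Zfp36: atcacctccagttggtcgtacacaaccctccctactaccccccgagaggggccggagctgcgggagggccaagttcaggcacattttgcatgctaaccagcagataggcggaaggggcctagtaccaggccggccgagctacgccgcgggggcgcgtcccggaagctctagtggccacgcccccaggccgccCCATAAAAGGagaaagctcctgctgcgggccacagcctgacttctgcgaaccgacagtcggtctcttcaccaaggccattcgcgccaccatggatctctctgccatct
Of the 16 immediate-early genes with an entry, 2 (12.5%) held the CArG box, against 1.81% of the 27025 genes in the table. Windows from several starts of Egr2 overlap, so genes and not promoters were counted.

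**Figure D3:**
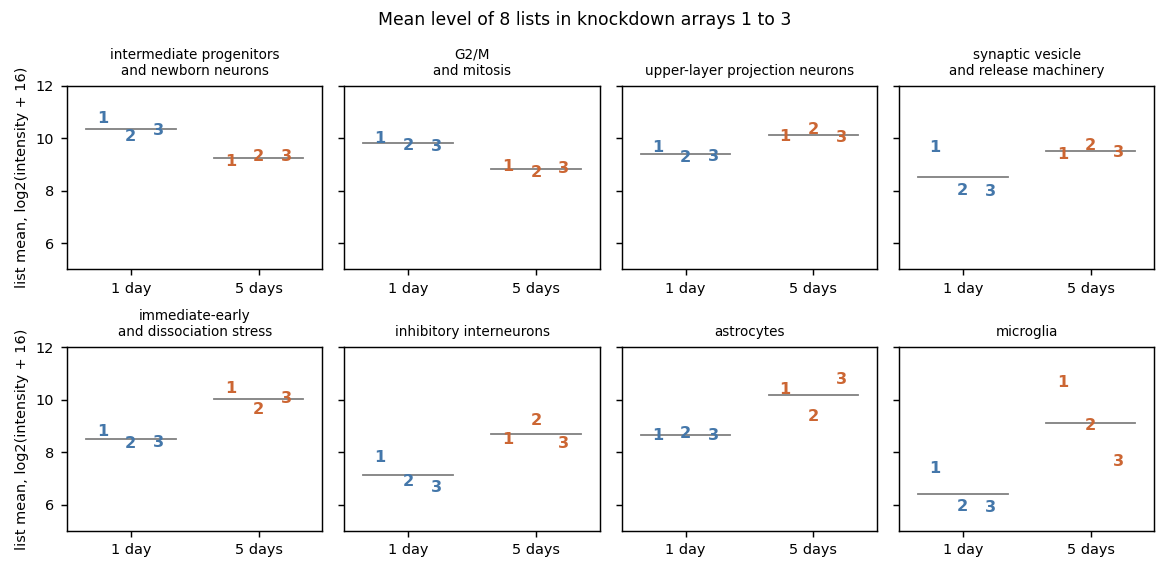
Mean log2(intensity + 16) of the tested members of 8 lists in each knockdown array at 1 day (blue) and 5 days (orange); digits are label numbers and grey lines group means. Progenitor and mitosis lists are lower in all 5 day arrays, 1 day array 1 lies among the 5 day arrays for synaptic vesicle genes, and the microglial mean spreads from 7.63 to 10.6 at 5 days.

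Microglial and vessel markers were uneven at 5 days. The part that these and the other cell types below have in the results above was not tested. Of 13 microglial genes none passed in limma, although 12 had a positive change, where 60.5% of all genes did, and 8 rose without 1 day array 1. Their summed intensity was 2560.4, 1113 and 1167 at 1 day and 30405, 10802 and 2708 at 5 days, highest in 5 day array 1 and lowest in 5 day array 3, and no marker was listed at 0. Csf1r, the receptor that microglia need to survive, had 209, 5.62 and 3 and 2917, 2531 and 303 (4.88 ± 1.32 (SE), adjusted p = 0.0565; 6.04, adjusted p = 0.0108, without 1 day array 1). Ctss, a lysosomal protease that they express strongly, had 360.5, 138 and 162 and 4654, 2275 and 414 (2.93, adjusted p = 0.0905). Of 13 endothelial and pericyte genes none passed, with summed intensities of 4574, 6528 and 5093 and 28845, 8785 and 3616. Pdgfrb, a receptor of pericytes, had 196, 25.8 and 20.3 and 549, 165 and 567, with overlapping ranges (2.51, adjusted p = 0.065). Cldn5, a tight junction protein of brain vessels, had 374, 49.9 and 53.1 and 4921, 328 and 181, high in 5 day array 1 alone (2.52, adjusted p = 0.277). Of 2 erythroid genes, Hbb-y, an embryonic globin, fell from 292, 463 and 264 to 32.2, 41.3 and 30.5 (-2.78 ± 0.52 (SE), adjusted p = 0.0169), a call lost without 1 day array 2 or 3 or 5 day array 1 or 3 (adjusted p 0.053 to 0.0794). Of 9 genes of meninges and fibroblasts, Pdgfra and Ogn rose. Ogn, a matrix proteoglycan, rose from 60.8, 64.3 and 63.6 to 200.4, 359 and 353 (1.98 ± 0.29 (SE), adjusted p = 0.00468), whichever array was left out, and the list sums were 1084, 3619 and 3471 and 4469.5, 4851 and 4129. Ebf2, 1 of 8 Cajal-Retzius genes, fell from 162, 1224 and 691 to 45, 102 and 49.7 (-2.79 ± 0.70 (SE), adjusted p = 0.0459; lost without 1 day array 2 or 3 or 5 day array 1, 2 or 3 (adjusted p 0.078 to 0.172)), with 1 day array 1 far below its group. Foxj1, the factor for motile cilia and 1 of 3 choroid plexus and ependymal genes, rose from 47.3, 18.5 and 25.5 to 243, 72.2 and 419.9 (2.26 ± 0.57 (SE), adjusted p = 0.0466; lost without 1 day array 2 or 3 or 5 day array 1 or 3 (adjusted p 0.118 to 0.17)). None of 8 genes of hippocampus, thalamus and striatum passed, and the median of that list was -0.24.

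Calls among the chromatin and REST genes named in the study's title are given beside the 5.17% of all genes that rose and the 1.97% that fell. Of 17 members of the trithorax complex, Kmt2c, a histone H3 lysine 4 methyltransferase, rose from 1035, 1268 and 888 to 1744, 2344 and 2181 (0.97 ± 0.23 (SE), adjusted p = 0.0366; lost without 1 day array 2 or 3 or 5 day array 1, 2 or 3 (adjusted p 0.0539 to 0.158)), and dimmer probe sets gave -0.15 and -1.07 without passing. Of 14 BAF remodeller genes, the ATPase subunit Smarca2 rose from 1154, 514 and 597 to 1822, 3136 and 2254 (1.70 ± 0.34 (SE), adjusted p = 0.021; lost without 1 day array 2 or 3 or 5 day array 2 or 3 (adjusted p 0.0628 to 0.101)). Of these lists, 2 trithorax and 4 BAF genes rose without 1 day array 1. Rest had 682, 1411 and 1155 and 1512, 1211 and 1122, with overlapping ranges (0.29 ± 0.33 (SE), adjusted p = 0.586; -0.0062 without 1 day array 1). Of the other 10 members of the REST list, 2 fell. Rcor2, a corepressor of REST, fell from 1306, 658 and 660.4 to 299, 244 and 335 (-1.46 ± 0.34 (SE), adjusted p = 0.0364). Hdac1, a histone deacetylase, fell from 1539.6, 1579 and 1598 to 713, 1015 and 784 (-0.91 ± 0.20 (SE), adjusted p = 0.0281), but was 0.54 without normalization and 0.42 within time points. These calls were lost 2 without 1 day array 2, 2 without 1 day array 3, 2 without 5 day array 1, 1 without 5 day array 2 and 2 without 5 day array 3 (adjusted p 0.0794 to 0.115). Of 18 neuronal genes with RE1 sites, the sequence REST binds, 3 rose and none fell, with a median of 0.72, and 7 rose without 1 day array 1. Chgb, a granin of secretory vesicles, rose from 379, 167 and 169 to 527, 959 and 654 (1.58 ± 0.38 (SE), adjusted p = 0.0396). Stmn3, a stathmin, rose from 4466, 3455 and 3577 to 6863, 6546 and 7454 (0.86 ± 0.19 (SE), adjusted p = 0.0273), and the third was Syt4. Of the 3, calls were lost 3 without 1 day array 2, 3 without 1 day array 3, 2 without 5 day array 1, 2 without 5 day array 2 and 3 without 5 day array 3 (adjusted p 0.0569 to 0.163).

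Calls in the signalling and housekeeping lists are likewise given beside the 5.17% of all genes that rose and the 1.97% that fell. Of 31 Notch and Wnt genes, 2 rose and 3 fell, with a median of -0.16. The Frizzled receptors split, as Fzd5 rose from 24.3, 43.2 and 61.9 to 165, 104 and 162 (1.46 ± 0.31 (SE), adjusted p = 0.0258), whereas Fzd2 fell from 2233, 2902 and 2644 to 1008, 929.5 and 1138 (-1.32 ± 0.22 (SE), adjusted p = 0.0106; 0.034 without normalization). Fzd9 changed by -1.57, Mfng, a modifier of Notch, by -1.27 and the secreted Dkk3 by 1.63 (adjusted p = 0.0399, 0.0216 and 0.0285), and of the 5 calls those lost were 5 without 1 day array 2, 4 without 1 day array 3, 3 without 5 day array 1, 2 without 5 day array 2 and 4 without 5 day array 3 (adjusted p 0.0515 to 0.158). Of 16 microcephaly genes, Knl1, a kinetochore scaffold, fell from 392, 919 and 976 to 162, 213 and 287 (-1.65 ± 0.42 (SE), adjusted p = 0.0491; lost without 1 day array 2 or 3 or 5 day array 1, 2 or 3 (adjusted p 0.0838 to 0.194)). Of 16 ribosomal protein genes, Rps6 fell from 1306, 1329 and 1090.2 to 749, 516 and 609 (-0.98 ± 0.24 (SE), adjusted p = 0.0402; 0.44 without normalization, 0.31 within time points, and lost without 1 day array 2 or 3 or 5 day array 1, 2 or 3 (adjusted p 0.0564 to 0.15)). The ribosomal list median was -0.55, and -0.17 without 5 day array 2, the array with the high 3 prime to 5 prime ratio. Relative to the median of all genes it was -0.76, and -1.36 without normalization, -1.40 with scaling to the 75th percentile and -1.35 within time points, where the mitosis list stood at -1.30, -1.04, -1.05 and -1.02. With scaling to the 75th percentile 8 of the 16 ribosomal genes fell. Of 19 ER chaperone genes, Dnajc3, a co-chaperone of the stress response, rose from 737, 687 and 578 to 1565, 1169 and 1293 (0.99 ± 0.21 (SE), adjusted p = 0.0247; lost without 1 day array 2 or 3 or 5 day array 1 or 3 (adjusted p 0.0704 to 0.117)). None of 11 p53 target, 27 respiratory chain, 16 cholesterol and 11 interferon response genes passed in limma, with medians of -0.11, -0.31, 0.29 and -0.12. Those of smallest p were Plk2, a p53-induced kinase, at 1.24, Uqcrq, a subunit of complex III, at -1.20 (0.21 without normalization), Hsd17b7 and Lss, enzymes of cholesterol synthesis, at 1.54 and 1.11, and Irf7, an interferon regulator, at -1.22. Their adjusted p were 0.0609, 0.119, 0.074, 0.0657 and 0.101. In the fit without 1 day array 1, 3 Notch and Wnt genes rose and 5 fell, 1 microcephaly gene rose and 2 fell, 4 ER chaperone genes rose and 1 fell, 2 p53 target and 2 cholesterol genes rose and 2 interferon response genes fell.

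The largest changes included predicted genes and RIKEN clones. Of the 15 genes with the largest rise, 11 were called in every fit that left out an array, and in 8 of the 15 1 day array 1 lay more than 3-fold above both other 1 day arrays. Gm5802 rose from 10.4, 2.69 and 3.88 to 1726, 1939 and 1986 (6.47 ± 0.28 (SE), adjusted p = 5.09e-07) and 1700065D16Rik from 30, 6.61 and 10.1 to 2312, 1812 and 2285 (6.15 ± 0.28 (SE), adjusted p = 5.94e-07). Cirbp, a cold-inducible RNA-binding protein, rose from 431, 41.4 and 38.8 to 4161, 4132 and 4659 (5.27 ± 0.75 (SE), adjusted p = 0.00402), and Rpl39, a ribosomal protein, from 50.1, 102 and 119 to 3748, 3030.0 and 3682 (5.10 ± 0.44 (SE), adjusted p = 0.000143). Macroh2a3 and Chmp4c, an ESCRT subunit, rose by 5.07 and 5.17. Lsamp, an adhesion protein of limbic neurons, rose by 4.36 and Slco1c1, a thyroid hormone transporter, by 4.09. Mpeg1, a macrophage perforin, rose from 88.6, 5.26 and 8.67 to 2574, 1612 and 245 (4.76 ± 1.15 (SE), adjusted p = 0.0402), a call lost without 1 day array 2 or 3 or 5 day array 1 or 2 (adjusted p 0.112 to 0.156). Like Csf1r and the summed microglial markers, it was highest in 5 day array 1 and lowest of the 5 day arrays in array 3. Of the 15 with the largest fall, 6 were called in every fit. Gm34303 fell from 1866, 1728 and 1881 to 52.4, 59.8 and 21.7 (-4.99 ± 0.26 (SE), adjusted p = 1.89e-06), 4930448K20Rik from 2338, 2278 and 2055 to 78.5, 83.2 and 66.1 (-4.61 ± 0.18 (SE), adjusted p = 1.91e-07) and Fam219a from 2060.3, 1471 and 1505 to 59, 60.6 and 45.5 (-4.57 ± 0.34 (SE), adjusted p = 4.3e-05). A dimmer probe set of 4930448K20Rik gave -0.11 without passing. In 9 of these 15, among them Clec2e (111, 2017 and 2214 at 1 day and 15.8, 5.08 and 14.4 at 5 days) and Mab21l2 (155, 2123 and 1936 and 25.8, 35.1 and 24.3), 1 day array 1 lay more than 4-fold below both other 1 day arrays. Those 2 calls were lost without 1 day array 2 or 3 or 5 day array 1, 2 or 3 (adjusted p 0.0769 to 0.138) for Clec2e and without 1 day array 2 or 3 or 5 day array 1, 2 or 3 (adjusted p 0.0733 to 0.126) for Mab21l2. In the control cells the changes were 6.34 for Gm5802, 5.64 for Rpl39, -5.07 for Gm34303 and -4.64 for Fam219a.

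Whether time acted otherwise in knockdown than in control cells was tested by the difference of the changes. No probe set of 27022 passed (limma, 0%, smallest adjusted p = 0.999948), with a median SE of 0.57 for this difference. An unadjusted p under 0.05 was found for 55, of which 26 had the more positive change in knockdown cells. That is far fewer than a share of 0.05 of the probe sets, which falls under this limit by chance when nothing differs. The absence of calls therefore does not show that time acted alike in both groups. With estimated array weights, which ran from 0.00349 to 34.1, 10696 probe sets passed. In control cells 886 probe sets (3.28%) were called, 547 higher and 339 lower. Of the calls, 720 were shared with the same sign, 44.6% of those in knockdown cells and 81.3% of those in control cells, and none had opposite signs. All 1616 changed in the same direction in control cells, and across all probe sets the changes correlated at 0.87, as a description of probe sets that are not independent and were normalized together. The time comparisons share no array. Among the smallest unadjusted p, H1f2, a linker histone, changed by 1.78 in knockdown and -0.24 in control cells, and Nrn1, a neurite outgrowth protein, by -1.60 and -0.94 (unadjusted p = 0.0175 and 0.0495). Cpt1a, which brings fatty acids into mitochondria, had intensities of 487, 341 and 273 at 1 day and 1169.7, 1171 and 1022 at 5 days, a change of 1.60 against 0.56 in controls (unadjusted p = 0.0331). Naf1, a factor for telomerase RNA, had 0.86 and 0.039, and Fbxo6, a ubiquitin ligase subunit, 1.54 and 0.33. In the other direction, Arrdc4 had 0.066 and 0.77, and Zfp133-ps -1.41 and 0.0043. None of these differences passed the adjusted threshold.

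**Figure D4:**
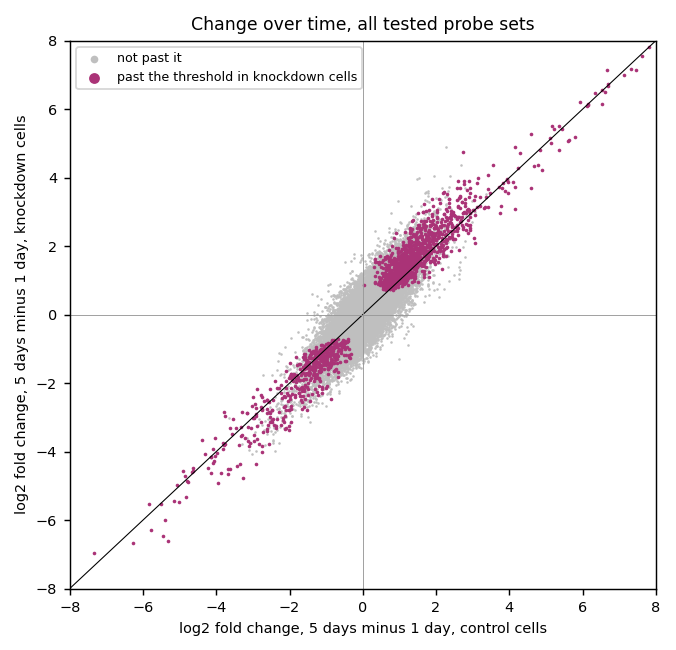
Log2 fold change, 5 days minus 1 day, of 27022 probe sets in control cells (x axis) and knockdown cells (y axis); purple points passed the threshold in knockdown cells, grey points did not, and the line marks equal change. All purple points lie in the quadrants of equal sign, some of them well off the line.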

How the data were processed

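The deposited value table gave linear intensities of 45101 probe sets, 1 column per array. The authors' steps from probes to these intensities (background correction, summarisation, scaling) were not given in the sources used here, and per the labels' protocols RNA was labelled with the 3 IVT Express kit. The 64 control probe sets were left out, values were quantile normalized over 12 arrays, 16 was added and log2 taken, and the upper 60% of probe sets by mean (27022) were kept. Symbols came from the platform annotation (34945 probe sets with 1 symbol, 932 with several, 9160 with none), 34741 of them updated through Entrez IDs. Probe sets with several symbols named no gene, and a gene is represented by its brightest kept probe set. The named genes had 108 other kept probe sets, 17 of them of opposite sign. Some of the same sign changed far less, and not all of these are given.

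Group means were fitted with limma 3.58.1 in R 4.3.3 (lmFit, contrasts.fit, eBayes) to the 12 arrays together (8 residual degrees of freedom), with Benjamini-Hochberg adjustment over the kept probe sets and a threshold of 0.05. The fit was also run on simulated data with independent noise in each array. The real arrays share structure that this leaves out, so the run cannot show how well the p-values hold here. No pair of arrays held the same values (at most 0.395% identical). Genes were named by rule: up to 15 each way of largest change among those past the threshold whose groups do not overlap, up to 4 each way in each list or, where none passed, the 2 of smallest p, up to 5 each way of the interaction, and a fixed set. Klf6, Egr1, Dusp1, Sema3c, Neurod4, Rnd2 and Syn1 were named beyond it, after their values were seen. The members and the 37 lists were chosen with earlier results of these data known. Other scalings, pseudocounts, filters, blocks, weights and fits without single arrays were run as alternatives.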

Additional observations from a re-analysis of the deposited data

How the results depend on the processing

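The count of probe sets called over time in knockdown cells, 1616, moved widely. It was 13533 without normalization (96.3% of calls higher against 67.6%), 12092 with quantile normalization within each time point (93.4% higher), 5566 with scaling to the 75th percentile (47.3% higher), 3029 without the filter (54.6% higher), 146 with the knockdown arrays fitted alone and 44 with the scanner as a block, which only the control arrays make possible. Leaving out 1 array gave 341 to 7729 calls, leaving out 1 day array 1 and 5 day array 2 gave 8823, and 1 day array 1 as the sole 1 day array, assumed to vary like the other groups, gave 132. Array weights gave 13453 calls and 10696 for the difference from controls. That difference had 0 calls under the other alternatives in which it was counted. It was not counted with the scanner block, with the mean of probe sets or with the trend and robust options of eBayes. The cause of these shifts was not tested, except that fewer arrays leave fewer degrees of freedom.

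Whether replicate numbers pair the samples was not settled. Deviations of same-numbered 1 day and 5 day arrays correlated at 0.51, 0.47 and -0.083. Arrays 1 and 2 at 1 day each correlated best with their same-numbered 5 day array. Array 3 at 1 day correlated best with array 2 at 5 days, also at 0.47. As 1 day arrays 2 and 3 correlated at 0.978, their deviations cannot tell their pairs apart. With the replicate block the count was 2158 in all 12 arrays and 345 in the knockdown arrays alone, against 1616 and 146 without it.

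Of the named genes' changes, 43 reversed. Without normalization these were Aldoc 0.93, Bcl11b 0.71, Cdt1 0.046, Dcc 0.37, E2f3 0.30, Fzd2 0.034, Hdac1 0.54, Mcm5 0.20, Mki67 0.33, Ndufb8 0.72, Pax6 0.70, Rps6 0.44, Rrm1 0.37 and Uqcrq 0.21. Within time points they were Aldoc 0.82, Bcl11b 0.62, Dcc 0.27, E2f3 0.19, Hdac1 0.42, Mcm5 0.078, Mki67 0.22, Ndufb8 0.61, Pax6 0.57, Rps6 0.31, Rrm1 0.24 and Uqcrq 0.035. Both scalings add over 0.8 to the median of all genes. As the mean of probe sets, Aldoc was 1.29 and Ndufb8 0.050. Leaving out arrays gave Aldoc 0.24 (without 5 day array 2) and 0.062 (also without 1 day array 1), Rest -0.0062 (without 1 day array 1), Tubb3 -0.11 and -0.12 (1 day array 3, 5 day array 1; up to 0.84 over all 6) and Zfp335 -0.14 and -0.020 (1 day array 3, 5 day array 3; up to 1.03 over all 6). With 1 day array 1 as the sole 1 day array, Aldoc was 0.070, Mx1 0.099, Slc12a5 -0.17, Tubb3 -0.91 and Zfp335 -1.16. The scanner block gave Cldn5 -0.42 and Rest -0.37, and the 75th percentile scaling gave Zfp335 -0.65. For the named genes, 2055 other results kept direction and side of the threshold, 607 were no longer past it and 109 newly passed.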
